A study of Mus musculus with 10 samples.

Results

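The genes described here form the MHC class I presentation machinery: the heavy chains H2-K1, H2-D1, H2-T23, H2-Q4 and H2-M3, the light chain B2m, the peptide transporter Tap1 and Tap2, the loading factor Tapbp and the transactivator Nlrc5. They were taken as the rows of the count table with these 10 symbols, out of 35958 features, and all 10 were among the 15767 features past a filter on low counts. Every nucleated cell can show peptides from its own proteins on class I molecules, which cytotoxic T cells read through their receptors and NK cells read through inhibitory receptors. Peptides are cut by the proteasome, pumped into the endoplasmic reticulum by the TAP transporter and fitted onto the heavy chain and beta-2 microglobulin with the help of tapasin, the product of Tapbp. Interferons raise transcription of these genes, in part through Nlrc5, which acts together with factors bound upstream of each class I gene.

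RNA came from WEHI-164 tumors, a fibrosarcoma line of BALB/c origin, labelled wild type and grown under the skin of female BALB/c mice. A piece of each tumor was removed at surgery before any treatment, and all 10 mice then had a hydrogel loaded with poly(I:C), a synthetic double-stranded RNA, laid on what remained. The 5 responders, tumors 5, 9, 10, 11 and 12, later regressed completely, and the 5 non-responders, tumors 1, 2, 3, 6 and 7, grew with no delay, so that response was known only after sampling. The lowest and highest library totals were 16002949 and 31160790 estimated counts among responders, and 19863863 and 28276142 among non-responders. Each tumor came from its own mouse, and the study's mice were bought as young adults. The comparison asks whether class I genes already differed between the groups before treatment. The tumors were measured as whole pieces, so that fewer cells of a type and less RNA per cell cannot be told apart. Fibroblastic markers were abundant in every tumor, with a summed level of 8 of 8 genes between 10220 and 11970 CPM (counts scaled to a common library total), led by Vim. Keratinocyte markers were low, with a summed level between 17.92 and 21.71 CPM led by Dsp and with Krt5, Krt14 and Krt1 below the filter, and B cell markers summed to between 1.13 and 1.92 CPM, with 3 of 5 past the filter.

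In the GRCm38 assembly, 8 members lie on chromosome 17, in the MHC region: H2-K1 (chr17:33996017-34000347), H2-D1 (chr17:35262730-35267499), H2-T23 (chr17:36029773-36032855), H2-Q4 (chr17:35379617-35385290), H2-M3 (chr17:37270220-37274484), Tap1 (chr17:34187553-34197225), Tap2 (chr17:34203527-34216321) and Tapbp (chr17:33915899-33929292). B2m (chr2:122147686-122153083) and Nlrc5 (chr8:94434356-94527272) lie elsewhere. RefSeq promoters of GRCm38.p6 were matched by symbol for 8 of the 10 members, and not for Tap2 and Nlrc5. The 200 bases before the RefSeq start of 4 heavy chain genes and of B2m are shown, 5′ to 3′ on the strand of the gene, as examples with several of the motifs searched. They were chosen after the matches were seen, and H2-T23, Tap1 and Tapbp, which have fewer of these matches and are not shown, varied with them across tumors as well. Capitals mark matches on either strand to GGGATTCCC (an NF-kB type palindrome), GAANNGAAA or GAAANNGAA (interferon response element letters), TGACG (a CREB type site) and CCAAT (the Y box, bound by NF-Y). By the GENCODE annotation H2-D1 begins upstream of its RefSeq start, so that its window lies within the annotated gene. The windows are chr17:34000348-34000547 (minus strand) for H2-K1, chr17:35262894-35263093 (plus) for H2-D1, chr17:35379417-35379616 (plus) for H2-Q4, chr17:37270034-37270233 (plus) for H2-M3 and chr2:122147487-122147686 (plus) for B2m.
H2-K1: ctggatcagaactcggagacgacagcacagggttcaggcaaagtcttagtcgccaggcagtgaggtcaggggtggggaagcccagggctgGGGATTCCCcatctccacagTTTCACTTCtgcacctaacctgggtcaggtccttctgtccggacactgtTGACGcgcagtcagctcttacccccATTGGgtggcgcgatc
H2-D1: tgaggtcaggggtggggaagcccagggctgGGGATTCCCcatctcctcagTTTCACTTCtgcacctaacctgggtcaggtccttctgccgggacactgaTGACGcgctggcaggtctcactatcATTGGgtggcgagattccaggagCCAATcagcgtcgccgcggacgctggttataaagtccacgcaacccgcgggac
H2-Q4: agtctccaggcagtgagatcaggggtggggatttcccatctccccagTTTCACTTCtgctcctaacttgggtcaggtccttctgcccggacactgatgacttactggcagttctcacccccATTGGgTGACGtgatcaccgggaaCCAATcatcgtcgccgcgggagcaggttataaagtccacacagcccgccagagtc
H2-M3: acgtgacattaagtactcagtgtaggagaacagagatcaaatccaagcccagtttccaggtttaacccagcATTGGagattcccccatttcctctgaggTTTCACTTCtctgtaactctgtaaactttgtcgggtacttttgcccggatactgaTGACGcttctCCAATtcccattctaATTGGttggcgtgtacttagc
B2m: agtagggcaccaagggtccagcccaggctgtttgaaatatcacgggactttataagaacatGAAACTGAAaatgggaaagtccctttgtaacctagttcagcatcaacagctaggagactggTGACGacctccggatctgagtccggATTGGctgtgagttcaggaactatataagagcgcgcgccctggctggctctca

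In the 250 bases before the start, CCAAT was found in 8 of 8 members with a promoter entry and in 33.9% of 32851 promoters of the same length. TGACG was found in 6 of 8, all but H2-T23 and Tapbp, against 17.8% of promoters. Its place differed: in H2-Q4 it lay close after a CCAAT match, whereas in H2-K1, H2-D1 and B2m it lay before every CCAAT match. GGGATTCCC was found in H2-K1 and H2-D1, against 0.301% of promoters, and in both the GAANNGAAA match lay close downstream of it, as the capitals show. GAANNGAAA was found in 4 of 8 members (H2-K1, H2-D1, H2-Q4 and H2-M3) and in 6.31% of promoters, but this arrangement was chosen after the sequences were seen. The other arrangement, GAAANNGAA, was found in 2 of 8 (H2-T23 and B2m) and in 7.13% of promoters. TTCNNNGAA, the gamma-activated site, was found in H2-M3 alone of the 8, against 7.02% of promoters, and lay upstream of the window shown. No matches of different motifs overlapped. The heavy chain genes are relatives, and the windows of H2-K1 and H2-D1 share long runs of nearly the same bases. Their matches are therefore not independent, and the shares over all promoters are given as a description. A match describes the letters of the window and is not evidence of a bound factor; promoter occupancy was not measured here.

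The counts rest on how reads were shared among near-identical genes. The tumors carry the d haplotype of BALB/c, whereas the reference is that of C57BL/6, so reads of the polymorphic heavy chains can be lost or assigned to a relative. Of the 31-base words in the annotated transcripts of each gene, 53.1% were shared with other genes for H2-Q4, 26.9% for H2-D1, 26.9% for Tapbp, 25.8% for H2-T23, 22.8% for H2-K1 and 14.3% for Tap2. The share was 4.62% for H2-M3, 4.09% for Tap1 and 0.579% for Nlrc5, and no word of B2m was shared. H2-K1 shared most with H2-D1, and H2-Q4 with H2-Q6. Most shared words of Tapbp were with Gm19412, an antisense gene that overlaps it. B2m, Tap1, H2-T23, H2-Q4, Tap2 and Nlrc5 also overlap a gene on the opposite strand, which is Psmb9 for Tap1. Whether counting used strand was not given in the sources used here. Heavy chain values are therefore uncertain as values of single genes, and the comparison was also made on sums over relatives.

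Levels between genes were compared per kilobase of transcript, over all 10 tumors. With the median annotated transcript length, H2-D1 stood at 2625 ± 272 CPM per kilobase (SD, n = 10) and B2m at 2569 ± 298, which did not differ beyond their spread. Tapbp followed at 810 CPM per kilobase, then H2-K1, within 1 SD of it, at 716 and Tap2 at 609, then H2-Q4 at 264, Nlrc5 at 137, H2-T23 at 128, Tap1 at 123 and H2-M3 at 27.9. The neighbours from Nlrc5 to Tap1 lay within 1 SD of each other. This order depends on the length used, because several of these genes have many short annotated transcripts. With the longest protein-coding transcript, a choice made after the lengths were seen, B2m stood at 2569 CPM per kilobase, H2-D1 at 701 and H2-K1 at 381. H2-Q4 followed at 323, Tapbp at 182, H2-T23 at 148, Tap1 at 110, Tap2 at 66.9, Nlrc5 at 31.02 and H2-M3 at 27.9. B2m and H2-D1 were the top pair, and H2-M3, which presents formylated peptides, was among the 2 lowest, with these lengths and also with merged exons.

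H2-K1 and H2-D1 encode the classical heavy chains that present peptides to CD8 T cells. H2-K1 stood at 569, 697, 635, 731 and 643 CPM in responders 5, 9, 10, 11 and 12, and at 550, 580, 682, 595 and 489 CPM in non-responders 1, 2, 3, 6 and 7. Responder 11 was highest and non-responder 7 lowest, and the groups overlapped because responder 5 lay among the non-responders and non-responder 3 among the responders. For H2-K1 the log2 fold change, responder over non-responder, was 0.18 (SE 0.09; edgeR quasi-likelihood test with Benjamini-Hochberg adjustment, adjusted p = 0.619).

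H2-D1 stood at 1386, 1625, 1510, 1718 and 1499 CPM in the same order of responders, and at 1349, 1386, 1549, 1522 and 1181 CPM in non-responders. The order of tumors was much the same, with responder 5 again level with a non-responder. For H2-D1 the log2 fold change was 0.15 (SE 0.08; edgeR adjusted p = 0.646), and 0.095 without non-responder 7. Summed into 1 feature, which does not depend on how reads were split between the pair, H2-K1 and H2-D1 stood at 2203 ± 189 CPM (SD, n = 5) in responders and 1977 ± 215 in non-responders, with a log2 fold change of 0.16 (SE 0.08; edgeR adjusted p = 0.632). A row named H2-L was not found among the features, so that this heavy chain had no value of its own here. Any reads from it would be lost or counted under a relative. The values of H2-D1 and of the sum can therefore include such reads, which was not tested.

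**Figure D1:**
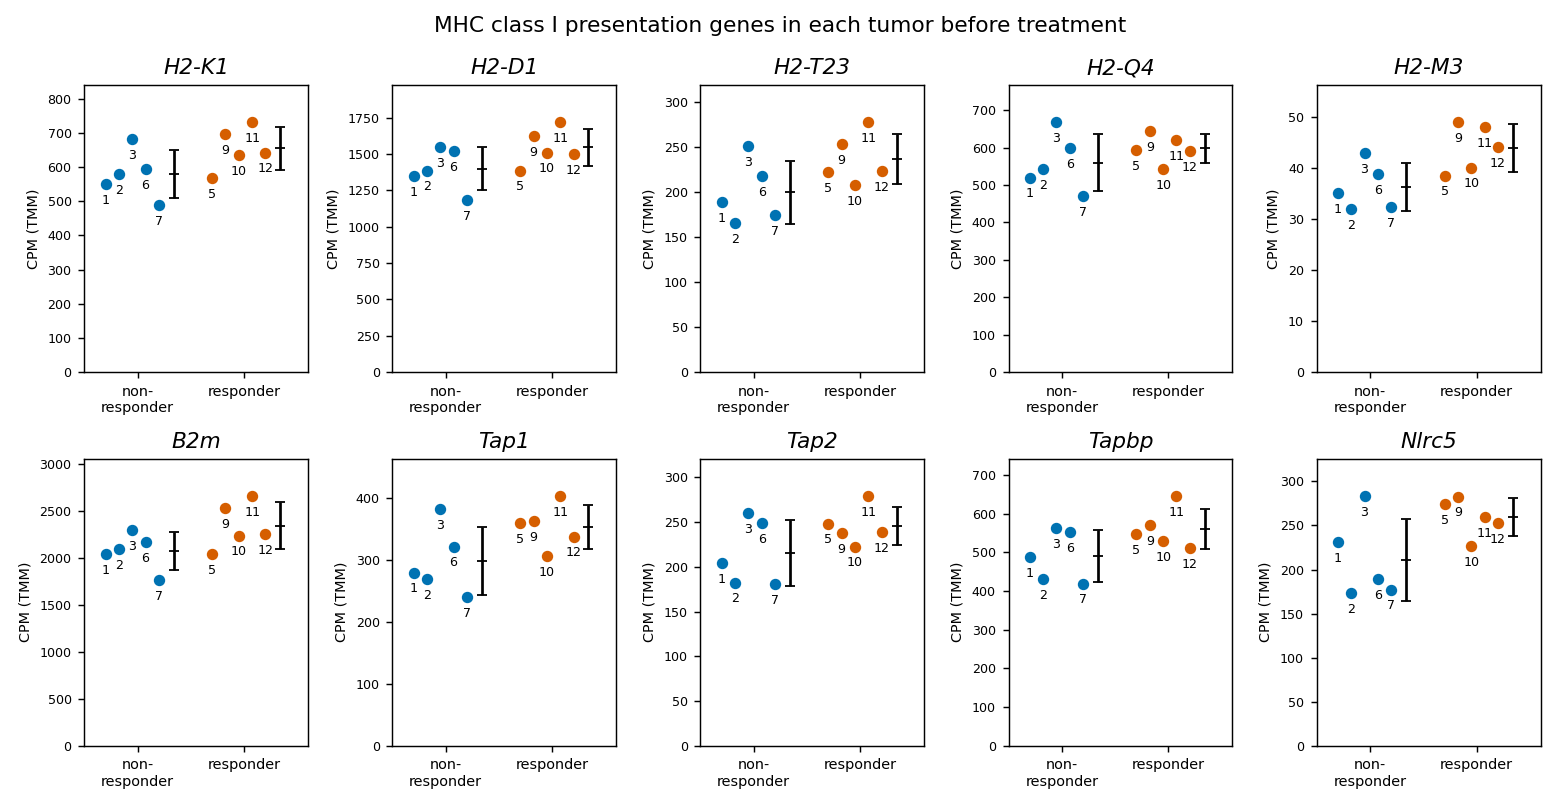
Each panel plots the TMM-normalized CPM of 1 gene (y axis, from 0) in the 5 non-responder (blue) and 5 responder (orange) tumors, with the tumor number beside each point and the mean ± SD as black bars. In every panel tumor 11 or 9 is the highest responder, tumor 3 the highest non-responder and tumor 7 or 2 the lowest non-responder, and the groups overlap in all 10 panels.

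The remaining heavy chains are non-classical. H2-T23 encodes Qa-1, which shows leader peptides of other class I chains to the NKG2A receptor of NK cells. It stood at 222, 253, 208, 277 and 223 CPM in responders 5, 9, 10, 11 and 12, and at 188, 166, 251, 218 and 175 CPM in non-responders 1, 2, 3, 6 and 7. Non-responders 1, 2 and 7 lay below every responder, but non-responders 3 and 6 did not, and the log2 fold change was 0.25 (SE 0.11; edgeR unadjusted p = 0.0454, adjusted p = 0.604). Summed over 6 H2-T rows, the log2 fold change was 0.23 (SE 0.11; edgeR adjusted p = 0.62).

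H2-M3 stood at 38.5, 49.0, 40.1, 48.0 and 44.1 CPM in responders 5, 9, 10, 11 and 12, and at 35.0, 32.0, 42.98, 38.9 and 32.4 CPM in non-responders 1, 2, 3, 6 and 7. Above every non-responder lay responders 9, 11 and 12, and below every responder lay non-responders 1, 2 and 7. The log2 fold change of H2-M3 was 0.28 (SE 0.09, 95% interval 0.08 to 0.48), with the smallest unadjusted p of the members, 0.01, and an edgeR adjusted p of 0.58.

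H2-Q4 stood at 594, 645, 542, 621 and 591 CPM in responders 5, 9, 10, 11 and 12, and at 520, 543, 668, 600 and 471 CPM in non-responders 1, 2, 3, 6 and 7. Its highest value was in non-responder 3, and its log2 fold change was the smallest of the 10 members at 0.10 (SE 0.08; edgeR adjusted p = 0.787). It was 0.04 without non-responder 7 and 0.17 without non-responder 3. Because more of H2-Q4 is shared with relatives than of any other member, the 8 rows of the H2-Q family were also summed, which gave a log2 fold change of 0.14 (SE 0.08; edgeR adjusted p = 0.669).

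B2m, the light chain common to all class I molecules, stood at 2040, 2536, 2239, 2659 and 2251 CPM in responders 5, 9, 10, 11 and 12, and at 2040, 2096, 2300, 2169 and 1765 CPM in non-responders 1, 2, 3, 6 and 7. Responders 9 and 11 were above every non-responder, and responder 5 was level with non-responder 1. The log2 fold change of B2m was 0.18 (SE 0.08; edgeR adjusted p = 0.607), and no other gene shares its 31-base words.

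Tap1 and Tap2 form the peptide transporter. Tap1 stood at 359, 362, 305, 402 and 337 CPM in responders 5, 9, 10, 11 and 12, and at 279, 268, 382, 321 and 240 CPM in non-responders 1, 2, 3, 6 and 7. Here responder 5 was not low, in contrast to H2-K1, H2-D1 and B2m, and non-responders 1, 2 and 7 lay below every responder. The log2 fold change of Tap1 was 0.25 (SE 0.11; edgeR unadjusted p = 0.0455, adjusted p = 0.604). Tap2 stood at 248, 238, 223, 279 and 239 CPM in responders and at 204, 182, 260, 249.1 and 181 CPM in non-responders, with a log2 fold change of 0.19 (SE 0.10; edgeR adjusted p = 0.653). Tapbp stood at 549, 571, 529, 646 and 510 CPM in responders and at 489, 431, 563, 552 and 420 CPM in non-responders, with a log2 fold change of 0.19 (SE 0.09; edgeR adjusted p = 0.61). For both genes, non-responders 1, 2 and 7 were below every responder and non-responders 3 and 6 were not.

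Nlrc5, the transactivator, had the largest log2 fold change of the members over all 10 tumors. It stood at 274, 283, 227, 260 and 253 CPM in responders 5, 9, 10, 11 and 12, and at 231, 174, 283, 189 and 177 CPM in non-responders 1, 2, 3, 6 and 7. The responders were close together (coefficient of variation 8.38%), whereas the non-responders split widely (22.1%), with non-responder 3 level with the highest responder and non-responders 2, 6 and 7 below every responder. The log2 fold change of Nlrc5 was 0.30 (SE 0.12, 95% interval 0.04 to 0.56; edgeR unadjusted p = 0.0283, adjusted p = 0.591). H2-M3 exceeded Nlrc5 without responder 5 (0.33 against 0.28) and without non-responder 6 (0.31 against 0.27), and the 2 were equal without non-responder 2 (0.24).

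Across the whole table, 0 of 15767 features passed an adjusted p of 0.05 in edgeR (0.00%), and 0 of the 10 members did. At an unadjusted p under 0.05, 663 features were higher in responders (4.20%) and 631 lower, and DESeq2 called 1 feature after adjustment. Of the members, 4 of 10 were higher at that unadjusted level (H2-T23, H2-M3, Tap1 and Nlrc5). All 10 members had a log2 fold change above 0, with a median of 0.19 and a range from 0.10 to 0.30, beside a median of -0.0036 and 48.6% above 0 over all features tested. Because the members move together across tumors, these 10 signs are not independent. Every responder was above every non-responder for 53 features (0.336%), and for none of the 10 members. The count of 4 depended on single tumors: it was 10 without non-responder 3, 7 without non-responder 6, 2 without responder 11 or non-responder 1, and 1 without responder 9, non-responder 2 or non-responder 7. No member passed the adjusted threshold when any 1 tumor was left out, and the log2 fold changes stayed above 0 in each case.

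**Figure D2:**
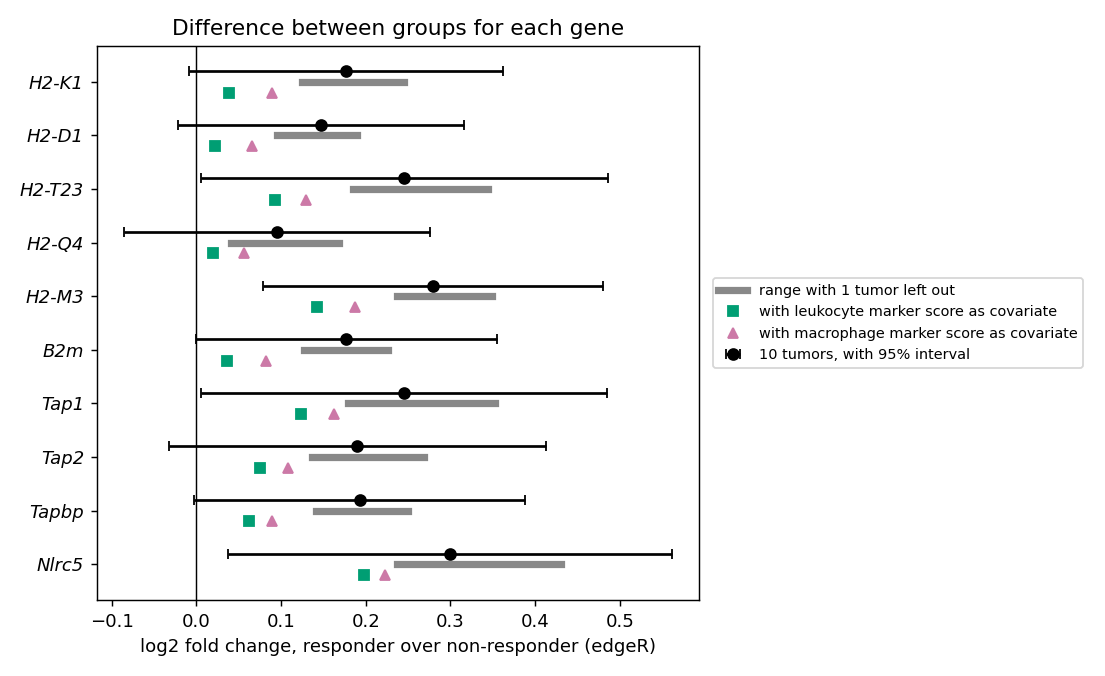
The log2 fold change (x axis, responder over non-responder, edgeR) of each gene (rows) is shown as a black point with its 95% interval, with a grey bar for the range when 1 tumor was left out and with green squares and pink triangles for fits with a leukocyte or macrophage marker score as covariate. All points lie above 0, between 0.10 and 0.30 without a covariate, and all are nearer 0 with a marker score in the fit.

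The members varied together from tumor to tumor. Over 45 pairs of members, Pearson's r across the 10 tumors ran from 0.595 to 0.977, with a median of 0.851; the points share their libraries, and these values are given as a description. The mean of the members' standardized log2(CPM + 1) was 1.30 in responder 11, 0.94 in responder 9 and 0.82 in non-responder 3. It was 0.28 in responder 12, 0.10 in responder 5, 0.03 in non-responder 6 and -0.05 in responder 10. Non-responder 1 stood at -0.70, non-responder 2 at -1.06 and non-responder 7 at -1.67. The 3 lowest tumors were thus non-responders, while non-responders 3 and 6 lay among the responders. Responder 5 was below the mean of the 10 tumors for H2-K1, H2-D1, H2-M3 and B2m and above it for the other 6 members, and non-responder 6 was low for Nlrc5 but near the mean or above it for the transporter genes and Tapbp.

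**Figure D3:**
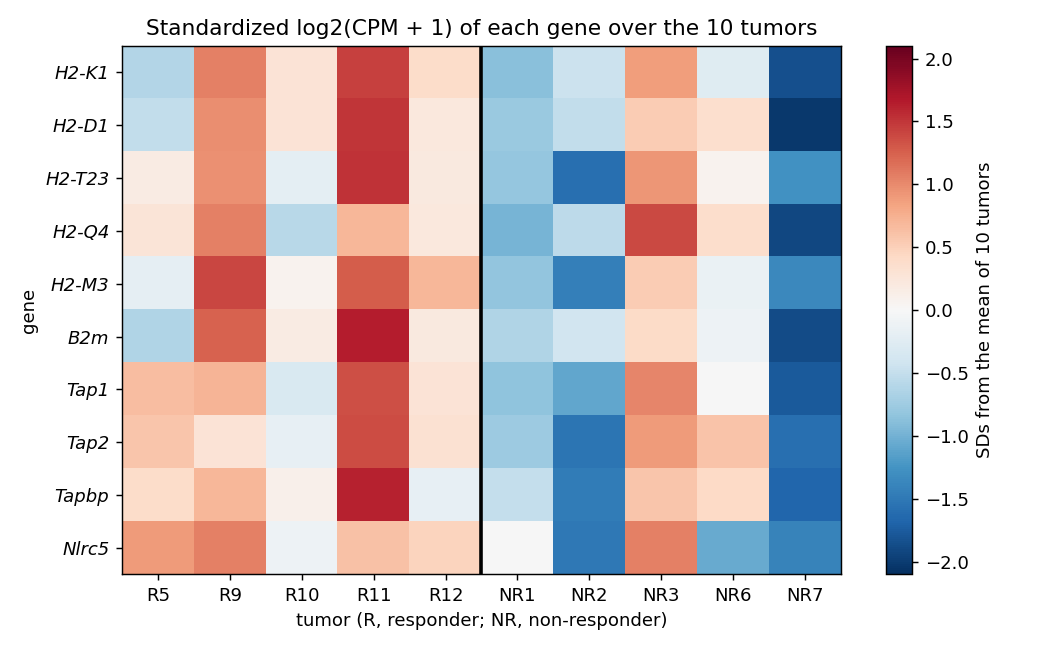
Colour shows how many SDs the log2(CPM + 1) of each gene (rows) lies above (red) or below (blue) its mean over the 10 tumors (columns; R, responder, and NR, non-responder, with the tumor number). The columns of NR7 and NR2 are blue throughout, as is that of NR1 apart from Nlrc5, which is near 0 there. Those of R11, R9 and NR3 are red throughout, whereas R5 is blue for H2-K1, H2-D1 and B2m and red for Nlrc5 and Tap1.

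Against Nlrc5, the other 9 members had r between 0.595 and 0.838 on log2(CPM + 1), and 7 of 9 passed an adjusted p of 0.05 (permutation test, two-sided, Benjamini-Hochberg over 9 relations; 5 of 9 by Spearman's rho). Over all 10 tumors, Tap1 followed it most closely (r = 0.838, permutation p = 0.0032, adjusted p = 0.0227; rho = 0.867, permutation p = 0.00253, adjusted p = 0.0169), then H2-T23 (r = 0.811; rho = 0.842). H2-D1 (r = 0.595, permutation adjusted p = 0.0686; rho = 0.612) and B2m (r = 0.622, permutation adjusted p = 0.0602; rho = 0.6) followed it least and missed the threshold. Without non-responders 2 and 7, the tumors farthest from the median of Nlrc5, r was lower for all 9, from 0.213 for H2-D1 to 0.649 for Tap1, and 0 of 9 passed over the 8 tumors left, so that the relations rest in part on that pair. With deviations from the group means r ran from 0.411 to 0.754 and 0 of 9 passed, and 0 of 9 passed also without responder 9 alone (r from 0.537 to 0.829), non-responder 2 alone (r from 0.597 to 0.811) or non-responder 7 alone (r from 0.401 to 0.781). Calls by Pearson's r were thus lost without responder 9 or non-responder 2 while the range of r stayed close to that over 10 tumors. By Spearman's rho, 2 of 9 passed without responder 9 (H2-T23 and Tap1) and 0 of 9 without non-responder 2. The closest gene to Nlrc5 also changed with single tumors. It was H2-M3 without responder 5 (r = 0.865, Tap1 0.829) and Tap2 without non-responder 6 (r = 0.903, Tap1 0.902).

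Against Ptprc, which encodes the leukocyte antigen CD45, r ran from 0.606 to 0.843 over the 10 members, and 9 of 10 passed an adjusted p of 0.05 (permutation test, two-sided, Benjamini-Hochberg over 10 relations; 5 of 10 by Spearman's rho). H2-M3, B2m, H2-D1 and H2-K1 were closest to it, and the exception was H2-Q4. Without non-responders 2 and 7, again the farthest tumors, 0 of 10 passed over the 8 tumors left, but the members differed. B2m was at r = 0.823 (0.842 over 10 tumors; permutation p = 0.0114), H2-K1 at 0.804 (0.84; permutation p = 0.0148) and H2-D1 at 0.765 (0.84; permutation p = 0.0282), each with an adjusted p above 0.05. Tap1 was at 0.28 (0.703 over 10 tumors), Tap2 at 0.201 (0.716), H2-Q4 at 0.217 (0.606) and Nlrc5 at 0.162 (0.666). Single tumors also moved these values: without responder 5, r was 0.845 for Tap1, 0.844 for Tap2 and 0.856 for Nlrc5, and 10 of 10 passed. After the group means were subtracted, r ran from 0.532 to 0.804 and 6 of 10 passed (0 of 10 by Spearman's rho). These deviations were permuted freely across the groups, although the subtraction ties them together within each group. The count of 6 may therefore be too high.

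**Figure D4:**
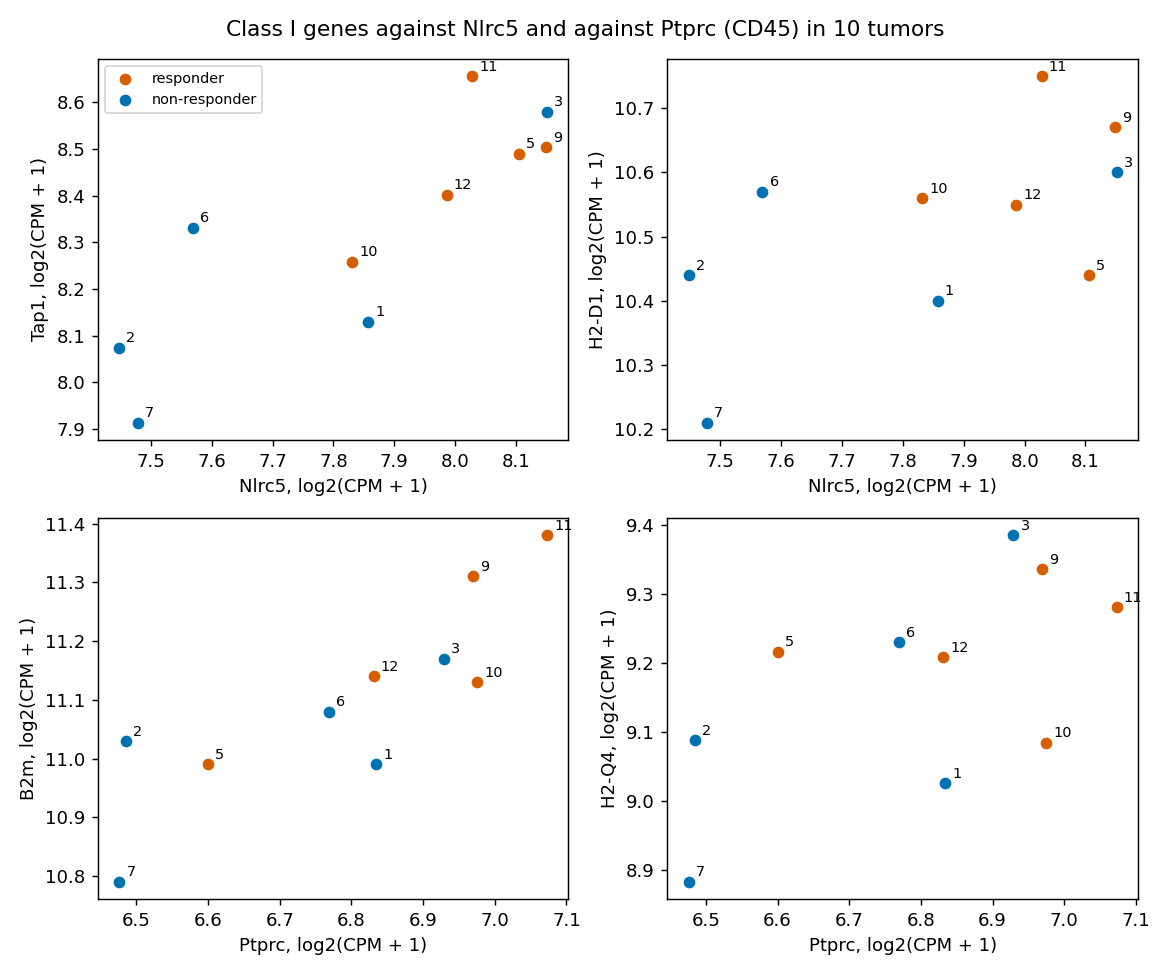
Each panel plots 1 class I gene (y axis) against Nlrc5 or Ptprc (x axis) as log2(CPM + 1) in 10 tumors, responders in orange and non-responders in blue, numbered by tumor. Tap1 follows Nlrc5 more closely than H2-D1 does (r of 0.838 and 0.595), B2m follows Ptprc (r of 0.842), and non-responders 2 and 7 sit at the low end of every x axis.

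Leukocyte marker transcripts varied along with class I levels, with exceptions, and their part in the class I values was not tested beyond the covariate fits below. The summed level of 6 of 6 leukocyte markers, of which Lcp1 was the most abundant, was 659, 818, 819, 936 and 750 CPM in responders 5, 9, 10, 11 and 12, and 794, 638, 746, 699 and 570 CPM in non-responders 1, 2, 3, 6 and 7. Responder 11 was again highest and non-responder 7 lowest, but non-responder 1 stood above responders 5 and 12 although its mean class I value was below theirs. The leukocyte score (mean log2(CPM + 1)) was 6.74 ± 0.20 (SD, n = 5) in responders and 6.52 ± 0.19 in non-responders (exact permutation test, two-sided p = 0.111). The macrophage score, over 8 of 8 markers led by C1qa, was 7.35 ± 0.17 against 7.20 ± 0.15 (n = 5 each, exact permutation p = 0.183), and the NK cell score, over 6 of 6 markers led by Gzma, was 3.40 ± 0.66 against 2.59 ± 0.39 (exact permutation p = 0.0635). The keratinocyte score, low in every tumor, was 2.65 ± 0.13 against 2.47 ± 0.08 (n = 5 each, exact permutation p = 0.0397, unadjusted over 12 marker lists), where of 3 markers past the filter Trp63 was at a log2 fold change of 0.79 and Krt10 and Dsp at 0.01 and -0.03. The neutrophil score was 2.18 ± 0.35 against 1.75 ± 0.37 (exact permutation p = 0.0873) and the T cell score 2.41 ± 0.47 against 2.099 ± 0.27 (exact permutation p = 0.246). Lower in responders were the fibroblastic score, 9.36 ± 0.04 against 9.45 ± 0.09 (exact permutation p = 0.0794), the endothelial score, 4.03 ± 0.16 against 4.17 ± 0.13 (exact permutation p = 0.167), and the skeletal muscle score, 3.83 ± 0.52 against 4.31 ± 0.38 (exact permutation p = 0.143), with 6 of 6 muscle genes at a log2 fold change below 0. Exact permutation p-values for the adipocyte, dendritic cell and B cell scores were 0.421, 0.992 and 0.873. Apart from the covariate fits that follow, the part of these cell types in the class I values was not tested. With the leukocyte score as a covariate in edgeR, the median log2 fold change of the members was 0.07 instead of 0.19, and 0 of 10 had an unadjusted p under 0.05; with the macrophage score it was 0.10, again with 0 of 10. Nlrc5 kept most of its difference under the leukocyte covariate (0.20, or 66.0% of its value without it) and H2-D1 least (0.02, or 14.8%). Which cells of the pieces carried the class I transcripts was not measured here.

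Other genes of the pathway were taken from lists by role, and none passed the adjusted threshold. Of 20 other class I heavy chain genes past the filter, 4 were higher at an unadjusted p under 0.05 and 0 lower, with a median log2 fold change of 0.15. The smallest p-values among them were for Cd1d1, which presents lipids (log2 fold change 0.28, SE 0.10; edgeR adjusted p = 0.58), H2-Q1 (0.19, SE 0.07) and H2-Q7 (0.22, SE 0.09). Of 13 genes that supply peptides, 3 were higher and 0 lower, with a median of 0.01. These were the immunoproteasome subunit Psmb9 (0.30, SE 0.11; edgeR adjusted p = 0.58), which overlaps Tap1 on the opposite strand, the proteasome activator subunit Psme2 (0.22, SE 0.08) and the aminopeptidase Lap3 (0.19, SE 0.08). Of 8 folding and loading genes, 1 was higher, with a median of 0.06. That gene was Tapbpl, which encodes the peptide editor TAPBPR (0.28, SE 0.12; edgeR adjusted p = 0.591), and Erap1, which trims peptides (0.11, SE 0.08), and Uggt1, a glycoprotein folding sensor (0.07, SE 0.05), were the next by p. Of 11 genes of turnover and trafficking, 0 passed an unadjusted p under 0.05, with a median of 0.00041. In that list Sar1a, a GTPase of vesicle export from the endoplasmic reticulum, was lower in every responder than in every non-responder, by a log2 fold change of -0.08 (SE 0.04; edgeR adjusted p = 0.619), a pattern seen in 93 of 15767 features; Bcap31 was at 0.09 (SE 0.05), and Marchf4, at 3 to 13 counts per tumor, at -0.40 (SE 0.38).

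Among 16 genes that regulate class I transcription, 4 were higher at an unadjusted p under 0.05 and 1 lower, with a median of 0.06. Among the higher genes were the interferon-responsive factors Irf8 (log2 fold change 0.45, SE 0.14; edgeR adjusted p = 0.58) and Irf1 (0.41, SE 0.14). Irf8 is also a gene of myeloid and dendritic cells. Of the RFX subunits that bind class I and class II promoters, Rfx5 was at 0.18 (SE 0.08), Rfxap at 0.07 (SE 0.09) and Rfxank at -0.22; they fall outside the naming rule and were picked after their values were seen, Rfxank as the 1 lower gene. Of 7 genes of the interferon gamma axis, 1 was higher, with a median of 0.10. That gene was Ifng itself (0.86, SE 0.30; edgeR adjusted p = 0.58), at 20 to 121 counts per tumor, and next by p came the feedback inhibitor Socs1 (0.29, SE 0.13) and the kinase Jak2 (0.15, SE 0.08).

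Of 10 genes past the filter in a list of receptors that read class I, 4 were higher and 0 lower, with a median of 0.60. One of the 4, Lilrb4a, encodes an inhibitory myeloid receptor whose known ligand is an integrin and not class I; without it, 3 of 9 were higher, with a median of 0.75. Klrc1, which encodes NKG2A, the partner of Qa-1, had a log2 fold change of 1.03 (SE 0.33; edgeR adjusted p = 0.58), at 4.69 ± 1.99 CPM (SD, n = 5) in responders and 2.30 ± 0.87 in non-responders. Lilrb4a was at 0.35 (SE 0.12), and Klra3, a Ly49 receptor at 6 to 32 counts per tumor, at 0.81 (SE 0.35). NK cell markers moved the same way, as given above, and their part in the receptor values was not tested. Ly49 genes also differ between mouse strains, so that their counts on a C57BL/6 reference are uncertain.

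Outside these lists, 11020 features with a mean of at least 5 CPM were ranked by Pearson's r, over 10 tumors, with the mean standardized class I value. The 5 most alike were Apol10b (r = 0.961), Ly6a (r = 0.96), Ly6c1 (r = 0.955), Ctsc (r = 0.955) and Iigp1 (r = 0.955), chosen for this likeness, so that their r is a description. Ly6a encodes the surface antigen Sca-1, Ctsc a lysosomal protease that activates granzymes, and Iigp1 an interferon-inducible GTPase. Their log2 fold changes between the groups were 0.59, 0.48, 0.51, 0.31 and 0.51, and the smallest of their edgeR adjusted p-values was 0.58.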

How the data were processed

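RNA of 10 tumor pieces was sequenced as paired reads. The authors ran Kallisto and then tximport, with GRCm38 (mm10) as the reference, and deposited estimated counts per gene, not normalized; the annotation release was not given in the sources used here. Of 36009 rows, 9580 had no name and were kept as features, and 44 names were on more than 1 row and were summed. Values were rounded, and a feature was kept if 3 or more tumors exceeded a CPM of 0.366. Groups were compared with edgeR 4.0.16 (quasi-likelihood test, TMM, Benjamini-Hochberg, threshold 0.05); alternatives were DESeq2 1.42.0 and limma-voom 3.58.1, all under R 4.3.3; the common biological coefficient of variation was 10.4%. Each standard error was taken from the fold change and the F statistic of its test. The edgeR and correlation steps were tested on simulated data. Correlations used a pseudocount of 1 and 100000 permutations. No batch was given. The p-values for groups set a difference against the spread between tumors, each from its own mouse. Variation between mice and between pieces cannot be told apart. The p-values of correlations concern relations across the tumors. Coordinates, lengths and 31-base words are from GENCODE vM21, promoters from RefSeq GRCm38.p6.

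The members and lists were chosen with earlier results of these data known. Besides the members, the text names the 3 genes of smallest p in each list, genes of a list whose groups did not overlap, and the 5 features outside the lists most like the members; 1 gene that this rule picks is not reported here. Alternatives were other normalizations, filters, tests, pseudocounts, row and length choices, marker covariates, sums over relatives and leaving out each tumor.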

Additional observations from a re-analysis of the deposited data

Results flagged for a closer look

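The endothelial marker score (mean log2(CPM + 1) of 6 markers, led by Pecam1) was 3.75 in responder 11, below the next responder at 4.06 and the highest at 4.12, a gap of 0.816 of the range of the 5 responders. Responder 11 was also the tumor with the highest mean class I value; the part of its endothelial content in that value was not tested. Over 44 groups of 5 values examined in this way, 1 stood out, and chance gives 2.2.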

How the results depend on the processing

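The members' log2 fold changes were above 0 under every alternative run, and no member passed the adjusted threshold in any. DESeq2 called 1 feature where edgeR called 0, and leaving out 1 tumor gave 0 to 9 features, the 9 without responder 5. The number of members at an unadjusted p under 0.05 was 7 with DESeq2 and with no filter, and 0 with either marker score as covariate. The count of relations to Nlrc5 at an adjusted p under 0.05 went from 7 of 9 to 0 without the 2 farthest tumors and to 0 with deviations from the group means, and ran from 0 to 9 with 1 tumor left out. The count of relations to Ptprc at that level went from 9 of 10 to 0 without the 2 farthest tumors, where r stayed at 0.823 for B2m, 0.804 for H2-K1 and 0.765 for H2-D1 and was 0.632 or less for the others, and ran from 6 to 10 with 1 tumor left out. These counts of relations are by Pearson's r. By Spearman's rho, the count with 1 tumor left out ran from 0 to 9 for Nlrc5 and from 0 to 9 for Ptprc. Other normalizations and row choices left the counts of features and members within 1.5 times, and other pseudocounts left the counts of relations unchanged. Levels per kilobase changed with the length, as the report gives. The cause of these changes was not tested, apart from the smaller number of tumors where some were left out. No paired analysis was possible because the groups share no tumor numbers. With 5 tumors a group, the smallest two-sided exact permutation p is 0.00794. The lowest estimated count of a member in any tumor was 783.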
